A study of Mus musculus with 12 samples.

Results

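Il4, Il6, Hgf and Csf1 encode secreted cytokines and growth factors, and their RNA was followed here through 4 cell populations of the basophil path in mouse bone marrow. They were taken as the rows of the deposited table whose gene symbol is Il4, Il6, Hgf or Csf1, which gave 4 of 14560 listed genes, each on 1 row. The populations came from C57BL/6 bone marrow, with 3 libraries each and 12 in all. DN-GMPs are granulocyte-monocyte progenitors without surface E-cadherin (CDH1) or the IgE receptor chain FceRIa. Pro-BMPs were sorted as E-cadherin positive and FceRIa negative, and Pre-BMPs as FceRIa positive with E-cadherin given as negative. All progenitors were c-Kit+, Sca1-, CD34+ and CD16/32+ and free of the lineage markers B220, CD3, Ter119, CD11b and Gr1. Basophils were sorted as c-Kit negative, CD49b positive and FceRIa positive, without B220, CD4, CD8a, Ter119 or Sca1. No treatment or mutation is recorded, and the animals' age is not given in the labels. Whether libraries with the same number share a mouse is not stated either, so p-values reflect only how far these libraries spread, which may be technical.

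Basophils are rare granulocytes that carry IgE on a surface receptor and release cytokines when it is crosslinked. Interleukin 4, encoded by Il4, drives type 2 helper T cell differentiation and class switching to IgE, and basophils are a known source of it outside T cells. Interleukin 6 (Il6) drives the acute phase response and signals through a binding chain paired with the shared chain gp130. Hepatocyte growth factor (Hgf) is made as an inactive precursor, is cut by serine proteases and acts on the receptor kinase MET. Colony-stimulating factor 1 (Csf1) sustains monocytes and macrophages through the receptor kinase CSF1R. The 3 successive steps of the path address when along the path each of these RNAs is first present and where it increases.

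The 4 genes lie at separate places on GRCm38 in the GENCODE vM21 annotation. Il4 (ENSMUSG00000000869) is on the minus strand at chr11:53602982-53618669 and Il6 (ENSMUSG00000025746) on the plus strand at chr5:30013114-30019981. Hgf (ENSMUSG00000028864) is on the plus strand at chr5:16553495-16620152 and Csf1 (ENSMUSG00000014599) on the minus strand at chr3:107741048-107760469. Their principal transcripts have 4 exons for Il4, 5 for Il6, 19 for Hgf and 9 for Csf1. Within its span Hgf overlaps Gm43489, a predicted transcript on the same strand, which had mean levels of at most 3.26 CPM in any population, and Gm42975, which was not analysed here. No annotated gene overlaps the other 3.

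Since all 4 RNAs were called higher at each step, as given further on, their promoters are shown for the factor motifs they hold. The sequences are the 250 bases before the outermost RefSeq start on GRCm38.p6, read 5′ to 3′ on the gene's own strand, and capitals mark motif matches on either strand. They span chr11:53618666-53618915 for Il4, chr5:30012864-30013113 for Il6, chr5:16553245-16553494 for Hgf and chr3:107760470-107760719 for Csf1.
Il4: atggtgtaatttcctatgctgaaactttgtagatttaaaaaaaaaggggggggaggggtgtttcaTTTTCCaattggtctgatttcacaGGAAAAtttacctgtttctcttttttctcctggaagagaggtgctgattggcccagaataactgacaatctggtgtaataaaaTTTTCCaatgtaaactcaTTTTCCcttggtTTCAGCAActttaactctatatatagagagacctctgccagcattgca
Il6: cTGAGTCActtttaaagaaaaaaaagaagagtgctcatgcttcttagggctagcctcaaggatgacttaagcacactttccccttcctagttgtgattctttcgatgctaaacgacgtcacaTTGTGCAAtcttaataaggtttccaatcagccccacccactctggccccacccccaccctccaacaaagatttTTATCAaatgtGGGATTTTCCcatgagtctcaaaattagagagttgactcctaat
Hgf: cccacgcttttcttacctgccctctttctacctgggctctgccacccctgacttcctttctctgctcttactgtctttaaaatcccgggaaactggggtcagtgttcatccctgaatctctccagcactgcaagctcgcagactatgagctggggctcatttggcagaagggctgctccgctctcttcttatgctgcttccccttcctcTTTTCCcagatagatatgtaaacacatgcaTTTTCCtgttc
Csf1: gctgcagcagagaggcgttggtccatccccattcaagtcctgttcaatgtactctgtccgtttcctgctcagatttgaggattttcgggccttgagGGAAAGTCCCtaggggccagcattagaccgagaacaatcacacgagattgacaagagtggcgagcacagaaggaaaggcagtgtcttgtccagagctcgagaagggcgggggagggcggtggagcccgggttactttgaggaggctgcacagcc
The motifs searched were GATA as AGATAA or TGATAA, C/EBP as TTNNGNAA, NFAT as GGAAAA, STAT as TTCNNNGAA, AP-1 as TGANTCA, NF-kB as its usual consensus (GGG and TTTCC parted by a pair of free bases) and the TATA box as TATAAA. Each window searched had 300 bases, with 50 after the start.

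**Figure D1:**
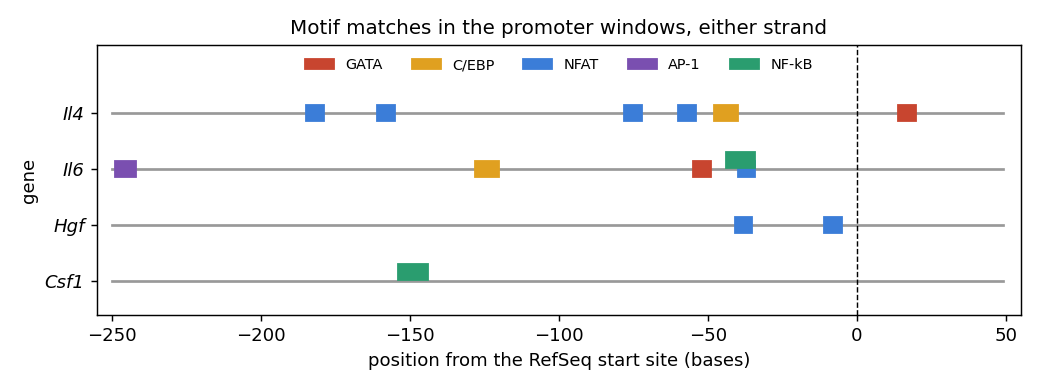
Motif matches in the promoter window of each gene, with position from the RefSeq start site in bases on the x axis and 1 line per gene. Coloured boxes are matches on either strand, drawn to scale, and the dashed line is the start site. The Il4 line carries 4 NFAT matches, and the Csf1 line carries only an NF-kB match.

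The promoters differed in what they held. Il4 had 4 NFAT matches, at -185, -161, -78 and -60 from the start, where a match reads GGAAAA or, on the other strand, TTTTCC. It also had a C/EBP match at -48 and a GATA match at 14 bases after the start. Il6 had 1 match each for GATA at -55, C/EBP at -128 and AP-1 at -249, and an NF-kB match at -44 that contains its NFAT match at -40. Hgf had NFAT matches at -41 and -11, and Csf1 had an NF-kB match at -154. Of the 32851 mouse promoter windows in the RefSeq table, 23.4% hold the NFAT letters, 40.7% the C/EBP letters, 18.6% the GATA letters, 7.81% the AP-1 letters and 1.63% the NF-kB letters. The STAT letters, in 8.3% of windows, and the TATA letters, in 13.6%, were in none of the 4 windows. Only TATAAA was searched for the TATA box, and the printed Il4 sequence holds tatatata shortly before the start. Whether that stretch acts as a TATA box was not tested. A match describes letters in a window and is not a bound site.

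Each library held 29762981 to 42502405 reads on listed genes. Levels are in CPM, reads per 1000000 of the authors' scaled library size, and 0 reads in a library allow up to 3 reads, or 0.0512 to 0.0745 CPM, as counting error alone. The sorting markers followed the gates except that Cdh1 RNA averaged 147 ± 37.6 CPM in Pre-BMPs, against 42.8 ± 11.7 CPM in Pro-BMPs (SD, n = 3 each). The 13 basophil markers summed to 357 to 435 CPM in DN-GMPs, 1832 to 2170 CPM in Pro-BMPs, 5893 to 7127 CPM in Pre-BMPs and 43520 to 48710 CPM in basophils. In sorted bulk samples, more cells that express a gene and more RNA per cell cannot be told apart.

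Il4 RNA was at 0 reads in all 3 DN-GMP libraries. It was at 0.356, 0.172 and 5.09 CPM in Pro-BMPs, at 9.78, 13.1 and 11.6 CPM in Pre-BMPs and at 120.6, 110.5 and 115 CPM in basophils. Each population lay wholly above the one before it, but the third Pro-BMP library stood far above the other two, and without it the Pro-BMP mean is 0.264 CPM in place of 1.87 CPM. That library also had more Fcer1a RNA, at 3.40 CPM against 0.419 and 0.862 CPM, and a higher sum of 9 eosinophil markers, at 3072 CPM against 1912 and 1982 CPM. Its basophil marker sum was 2170 CPM, against 2136 and 1832 CPM in the other two, and the part of these markers in its Il4 level was not tested.

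For Il4, limma gave a log2 difference of 5.98 (SE 0.966, adjusted p = 0.00593) for Pro-BMPs over DN-GMPs, at least 28.1-fold higher against a limit of 3 reads per DN-GMP library. The next step, Pre-BMPs over Pro-BMPs, had a log2 difference of 4.03 (SE 0.966, adjusted p = 0.0245 with limma), with a ratio of means of 6.14. These folds rest on the third Pro-BMP library, and without it Pro-BMPs were at least 3.97-fold above DN-GMPs (log2 difference 4.55) and Pre-BMPs 43.5-fold above Pro-BMPs (log2 difference 5.46). Basophils over Pre-BMPs gave 3.33 on the log2 scale (SE 0.966, adjusted p = 0.0218 with limma), a 10.03-fold higher mean. The single-step calls of Il4 depended on the processing. The Pro-BMP call over DN-GMPs was lost with 5 reads added (adjusted p = 0.0939), with voom weights (0.133) and with the 2 populations fitted alone (0.128). The Pre-BMP call over Pro-BMPs was lost with the 2 populations fitted alone (adjusted p = 0.0736) and when any 1 of Pro-BMP libraries 1 and 2 and the 3 Pre-BMP libraries was left out (adjusted p = 0.0591 to 0.0869 with limma), and reached 0.000326 without Pro-BMP library 3. The basophil call over Pre-BMPs was lost when any 1 of the 6 libraries was left out (0.0527 to 0.0652), although the log2 difference stayed between 3.22 and 3.44. The other alternatives kept that call, with a lowest limma adjusted p of 2.435e-06. In the main fit the 4 populations share 1 estimate of spread, so the uneven Pro-BMP libraries enter the SE of this step too. Across more than 1 step the calls held under every alternative run, with log2 differences of 7.36 for basophils over Pro-BMPs (a 61.6-fold higher mean, or 436-fold without Pro-BMP library 3, limma adjusted p = 0.000107) and 13.35 for basophils over DN-GMPs (at least 1731-fold higher, limma adjusted p = 7.69e-07). A log2 difference against 0 reads depends on the reads added, and the value of 13.35 was as low as 10.03 under the alternatives.

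Il6 RNA was likewise at 0 reads in the 3 DN-GMP libraries. Pro-BMPs had 5.16, 1.90 and 2.63 CPM, Pre-BMPs 20.4, 13.6 and 30.9 CPM and basophils 179, 168 and 194 CPM. The populations did not overlap, and the spread within Pre-BMPs was wide. Pro-BMPs were higher than DN-GMPs by 8.06 on the log2 scale (limma, SE 0.467, adjusted p = 2.11e-06), at least 48.4-fold. Pre-BMPs were higher than Pro-BMPs by 2.79 (limma adjusted p = 0.00366, 6.69-fold in means) and basophils higher than Pre-BMPs by 3.14 (limma adjusted p = 0.000431, 8.36-fold in means). Il6 was the member whose 6 calls were kept under every alternative run, with a highest adjusted p of 0.042.

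**Figure D2:**
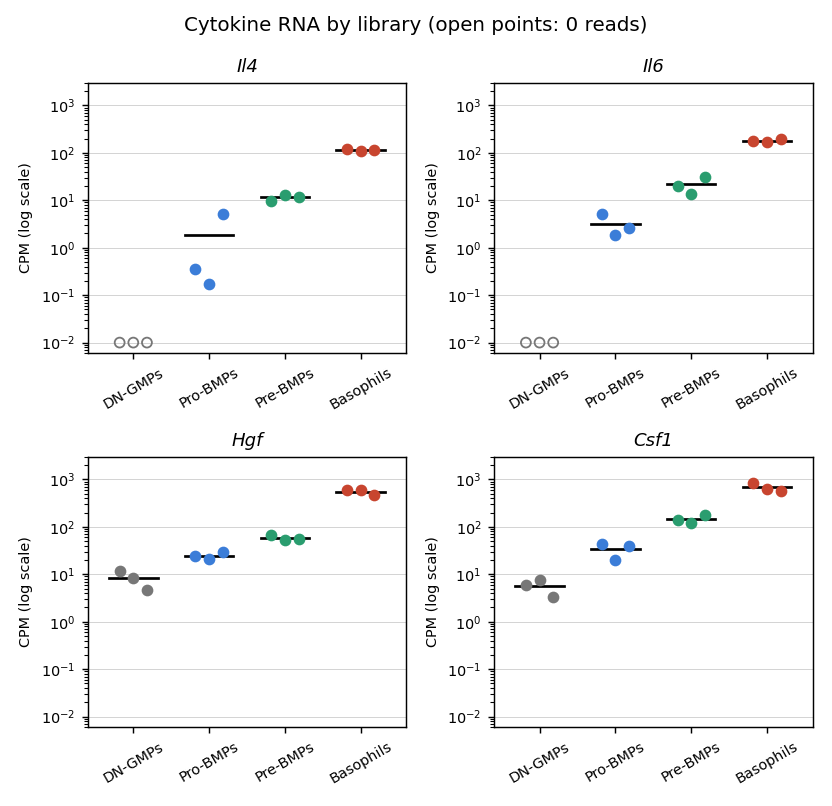
CPM of the 4 RNAs in each of the 12 libraries, on a log y axis shared by the panels. Points are libraries, 3 per population, black lines are means, and open points at the bottom are libraries with 0 reads, drawn at an arbitrary height. Il4 and Il6 have 3 open points in DN-GMPs, and each population lies above the one to its left in every panel, as in 1.3% of all genes.

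Hgf differed from the interleukins in that its RNA was present in DN-GMPs. DN-GMPs had 11.8, 8.19 and 4.64 CPM, Pro-BMPs 23.8, 21.3 and 28.9 CPM, Pre-BMPs 67.8, 52.2 and 54.5 CPM and basophils 598, 593 and 464 CPM. The populations did not overlap, and the last step was the widest gap. Hgf in Pro-BMPs exceeded DN-GMPs by 1.67 on a log2 scale (limma, SE 0.288, adjusted p = 0.00906, 3.00-fold in means), a call lost with voom weights (adjusted p = 0.106) and with the 2 populations fitted alone (0.109). Pre-BMPs exceeded Pro-BMPs by 1.24 (SE 0.288, limma adjusted p = 0.0209, 2.36-fold in means), and this call was lost without Pro-BMP library 1, Pro-BMP library 2, Pre-BMP library 1 or Pre-BMP library 3 (0.0574 to 0.0799). Basophils exceeded Pre-BMPs by 3.25 (SE 0.288, limma adjusted p = 9.79e-06, 9.49-fold in means), and no alternative run removed it. The 95% interval of that last difference, 2.61 to 3.88 on the log2 scale, did not overlap the interval of the step before it, 0.61 to 1.87, but both steps share the Pre-BMP libraries and their difference was not tested.

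Csf1 RNA was also present in DN-GMPs, at 5.94, 7.47 and 3.303 CPM. It was at 43.6, 20.4 and 39.1 CPM in Pro-BMPs, 139.8, 118 and 179.8 CPM in Pre-BMPs and 855, 615 and 577 CPM in basophils. No library of a later population fell to the level of an earlier one. Csf1 in Pro-BMPs was higher than in DN-GMPs by 2.63 on a log2 scale (limma, SE 0.342, adjusted p = 0.00129, 6.17-fold in means), a call lost with voom weights (adjusted p = 0.136). Pre-BMPs over Pro-BMPs gave 2.14 (SE 0.342, limma adjusted p = 0.00281, 4.25-fold in means) and basophils over Pre-BMPs gave 2.22 (SE 0.342, limma adjusted p = 0.000547, 4.67-fold in means). The 3 steps of Csf1 thus had log2 differences whose 95% intervals overlapped, while basophils stood 122.5-fold above DN-GMPs in means.

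The share of all 14560 genes called in the same direction is the background of these calls. All 4 were called higher in Pro-BMPs than in DN-GMPs, as were 2% of all genes, and all 4 in Pre-BMPs over Pro-BMPs, as were 4.8% of all genes. All 4 were higher in basophils than in Pre-BMPs, where 13.9% of genes were called higher. Over longer spans all 4 were higher in Pre-BMPs than in DN-GMPs (12.2% of all genes), in basophils than in Pro-BMPs (19.3%) and in basophils than in DN-GMPs (23.2%). Genes called lower were 0.536% of all genes in Pro-BMPs against DN-GMPs, 4.69% in Pre-BMPs against Pro-BMPs, 16.5% in basophils against Pre-BMPs, 9.69% in Pre-BMPs against DN-GMPs, 21.8% in basophils against Pro-BMPs and 23.2% in basophils against DN-GMPs. The moderated F-test over the 4 populations called 46.8% of genes, the members included, with adjusted p of 1.45e-08 for Il6 to 3.84e-06 for Il4. Only 52 genes, or 0.357%, were called higher at each of the 3 steps, and the 4 members were among them. In 190 genes, or 1.3%, the libraries of each population lay wholly above those of the one before, the 4 members included. The members were chosen for the report with earlier results of these data known, so their counts describe the members and do not test them.

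**Figure D3:**
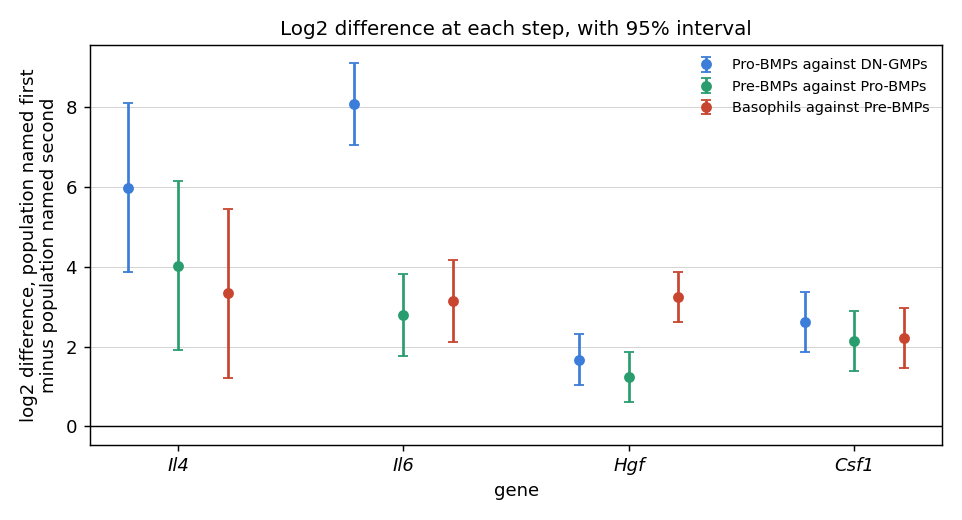
Log2 difference of each gene at the 3 steps, with the population named first minus the one named second in the legend. Points are limma estimates over 12 libraries and bars are 95% intervals. All 12 intervals lie above 0. For Hgf the basophil step at 3.25 stands above both earlier steps.

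As a share of the basophil mean, the members stood in a changing order. In DN-GMPs the shares were 1.49% for Hgf and 0.817% for Csf1, with both interleukins at 0. In Pro-BMPs they were 5.04% for Csf1, 4.46% for Hgf, 1.79% for Il6 and 1.62% for Il4. The Il4 share rests on the third Pro-BMP library and is 0.229% without it. In Pre-BMPs they were 21.4% for Csf1, 11.97% for Il6, 10.5% for Hgf and 9.97% for Il4. Per kilobase of annotated exon, the basophil level was 129 ± 28.6 CPM for Csf1, 94.0 ± 4.12 CPM for Il4, 76.8 ± 10.6 CPM for Hgf and 74.3 ± 5.43 CPM for Il6 (SD, n = 3 each). The levels of Hgf and Il6 on this scale differed by less than the spread between libraries, while Csf1, at 109 CPM or more per kilobase in every basophil library, lay above the 98.3 CPM of the highest Il4 library. In basophils these levels placed Csf1 at rank 319, Il4 at 495, Hgf at 640 and Il6 at 669 among 14515 genes with an annotated length. The length used is the union of exons over all transcripts, 1227 bases for Il4 and 5281 for Csf1. Their principal transcripts have 590 and 4176 bases, so the order of Csf1 and Il4 and the ranks depend on the length chosen. In Pre-BMPs, Csf1 was at 27.7 ± 5.91 CPM per kilobase, and the other 3 were within their spread of each other at 8.10 to 9.38 CPM per kilobase.

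Across the 12 libraries the deposited log2 values of the members were correlated, with Pearson r of 0.903 (Il6 and Hgf) to 0.973 (Il4 and Csf1), as a description over 12 libraries of 4 populations that differ in many genes. Many other genes were as close. By r with Il4, Csf1 ranked 13 and Hgf 208, while by r with Hgf, Il4 ranked 370 and Il6 581. Among 12163 genes with a mean of at least 1 CPM, the 5 most like Il6 were Cyp11a1, a steroid-synthesis enzyme (r = 0.997), the mast cell and basophil protease Cpa3 (0.994), the basophil protease Prss34 (0.993), the E-cadherin gene Cdh1 (0.991) and Gpc4 (0.991). The 5 most like Il4 were Ddx58, an RNA sensor (0.985), Gata2, a transcription factor of basophils and mast cells (0.982), the integrin chain Itgb7 (0.980), Fcer1a (0.978) and the unnamed ENSMUSG00000085972 (0.978). Hgf was closest to Fbxo9 (0.993), the tetraspanin Cd9 (0.992), the TSLP receptor chain Crlf2 (0.989), the basophil protease Mcpt8 (0.988) and Cd37 (0.987). Csf1 was closest to the integrin chain Itga2b (0.994), Padi2 (0.993), Acss2 (0.992), Gata2 (0.990) and Myo1d (0.990).

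The receptor chains of these cytokines were read at each step. Of 6 measured chains, 1 was called higher and 0 lower in Pro-BMPs than in DN-GMPs (median log2 difference -2.40), 1 higher and 3 lower in Pre-BMPs than in Pro-BMPs (-1.68), and 1 higher and 0 lower in basophils than in Pre-BMPs (0.33). Over all genes, 2% were called higher and 0.536% lower at the first step. The shares were 4.8% and 4.69% at the second step and 13.9% and 16.5% at the third. The 0 lower receptor chains at the first step were 0 to 3 under the alternatives. The higher chain at each step was Il2rg. Over the whole path, of 6 measured receptor chains, 1 was called higher and 4 lower in basophils than in DN-GMPs. The median log2 difference was -5.29, against -0.01 over all genes, and 23.2% of all genes were called in each direction. The count of 4 lower chains was 2 to 3 when single libraries were left out, and 2 to 4 under the other alternatives. Il13ra1 and Il13ra2 were not analysed here.

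Both chains of the IL-6 receptor were lower in basophils than in DN-GMPs. Il6ra, the binding chain, was at 26.3, 30.1 and 35.4 CPM in DN-GMPs, 4.44, 6.29 and 4.42 CPM in Pro-BMPs, 0.285, 0.173 and 0.861 CPM in Pre-BMPs and 1.87, 1.64 and 0.115 CPM in basophils. All later libraries lay below all DN-GMP libraries. Basophils against DN-GMPs had a log2 difference of -5.37 (limma, SE 0.936, adjusted p = 0.000670). Il6st, which encodes gp130, was at 48.2, 48.4 and 28.4 CPM in DN-GMPs, 4.63, 12.4 and 8.90 CPM in Pro-BMPs, 0, 0.0192 and 1.38 CPM in Pre-BMPs and 0.0231, 0.463 and 0 CPM in basophils. Its log2 difference between basophils and DN-GMPs was -9.46 (SE 1.69, limma adjusted p = 0.000802). In basophils, Il6 RNA was thus at 168 CPM or more per library while neither receptor chain reached 2 CPM.

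Csf1r, the receptor of Csf1, was at 179, 199 and 108 CPM in DN-GMPs and at 25.04, 34.2 and 26.5 CPM in Pro-BMPs. It was at 0, 0 and 9.84 CPM in Pre-BMPs, where the third library stood apart, and at 5.78, 7.36 and 1.08 CPM in basophils. Pre-BMPs were lower than DN-GMPs, with a log2 difference of -10.63 (limma, SE 2.07, adjusted p = 0.00384). The libraries at 0 reads enter that size, and the Pre-BMP mean was 2.025% of the DN-GMP mean. Basophils against DN-GMPs were at the edge of the threshold, with a log2 difference of -5.44 (limma adjusted p = 0.0499), a call lost when any 1 of the 6 libraries was left out (highest adjusted p = 0.142). Met, the receptor of HGF, was at 29.6, 25.6 and 23.2 CPM in DN-GMPs, 1.59, 9.31 and 0.393 CPM in Pro-BMPs, 14.6, 7.11 and 10.2 CPM in Pre-BMPs and 7.26, 4.14 and 0 CPM in basophils. Every later library of Met was below every DN-GMP library, and basophils against DN-GMPs had a log2 difference of -5.21 (SE 1.97, limma adjusted p = 0.0488), lost in 4 of the 6 fits that left out a library.

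The IL-4 receptor chains behaved apart from these. Il4ra, the binding chain, was at 16.3, 54.4 and 18.3 CPM in DN-GMPs, 21.98, 6.27 and 11.2 CPM in Pro-BMPs, 12.8, 24.96 and 11.95 CPM in Pre-BMPs and 26.4, 20.5 and 2.93 CPM in basophils, with overlap between all populations and no call. Il2rg, the common gamma chain that pairs with it, was at 30.7 ± 4.58 CPM in DN-GMPs, 47.7 ± 3.51 CPM in Pro-BMPs, 81.1 ± 8.29 CPM in Pre-BMPs and 180 ± 6.68 CPM in basophils (SD, n = 3 each). It was higher in Pre-BMPs than in Pro-BMPs by 0.76 on the log2 scale (limma adjusted p = 0.00588) and in basophils than in Pre-BMPs by 1.15 (limma adjusted p = 9.66e-05). Pro-BMPs over DN-GMPs gave 0.64 (limma adjusted p = 0.0343), lost in 5 of the 6 fits that left out a library.

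**Figure D4:**
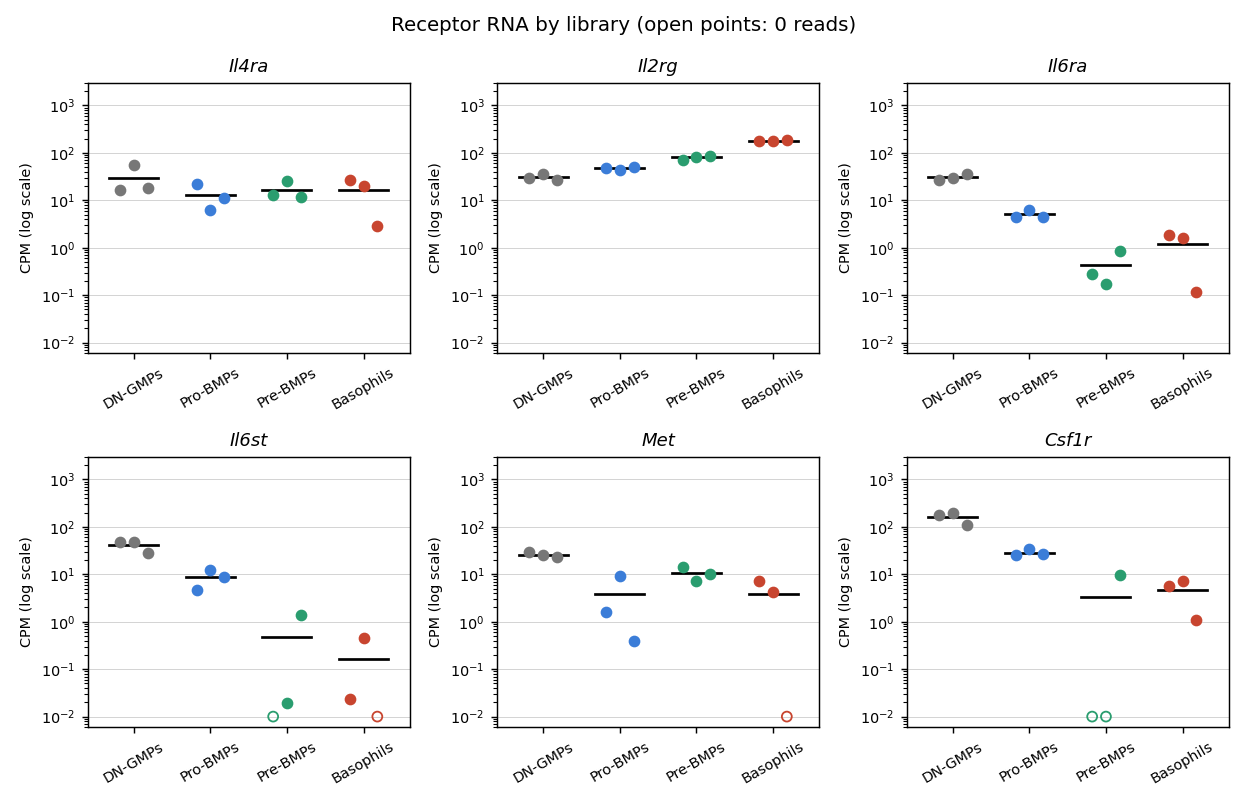
CPM of 6 receptor chains in each library, on a log y axis shared by the panels. Points are libraries, 3 per population, black lines are means, and open points mark 0 reads at an arbitrary height. Il6ra, Il6st, Csf1r and Met lie lower in every later library than in any DN-GMP library, Il4ra overlaps throughout, and the Il2rg means ascend along the path.

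HGF needs cleavage to become active, so the proteases that cut it and their inhibitor were read beside it. Of 6 measured genes on that list, 4 were called higher and 0 lower in basophils than in Pre-BMPs, with a median log2 difference of 4.85 against -0.10 over all genes. In that comparison 13.9% of all genes were called higher and 16.5% lower. Hgfac, which encodes the HGF activator protease, was at 50.1, 34.6 and 20.3 CPM in basophils, against 1.81, 0.0767 and 0 CPM in Pre-BMPs. It was at 0 reads in DN-GMPs, and basophils exceeded Pre-BMPs by 8.16 in log2 (limma, SE 1.91, adjusted p = 0.00720). St14, the membrane protease matriptase, was at 159, 147 and 207 CPM in basophils and 19.3, 18.8 and 7.85 CPM in Pre-BMPs, a log2 difference of 3.58 (SE 0.475, limma adjusted p = 0.000194).

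Plg, encoding plasminogen, was at 39.3, 35.1 and 30.7 CPM in basophils and 3.58, 0.0192 and 1.23 CPM in Pre-BMPs. Its log2 difference of 6.11 (limma adjusted p = 0.0469) was lost in 5 of the 6 fits that left out a library. F12, encoding coagulation factor XII, was at 1.57, 8.54 and 2.26 CPM in basophils and had at most 1 read in any other library. Hpn, encoding the protease hepsin, had its highest mean in Pre-BMPs, at 9.80 ± 2.28 CPM, against 0.832 ± 0.797 CPM in DN-GMPs. The inhibitor gene Spint2 had means of 110.3 CPM in DN-GMPs, 170.5 CPM in Pro-BMPs, 154 CPM in Pre-BMPs and 146 CPM in basophils, and was higher in Pro-BMPs than in DN-GMPs by 0.63 on the log2 scale (limma adjusted p = 0.0223), a call lost in 3 of the 6 fits that left out a library. Plau, Plat, Klkb1, Spint1 and Serpina5 were not analysed here.

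**Figure D5:**
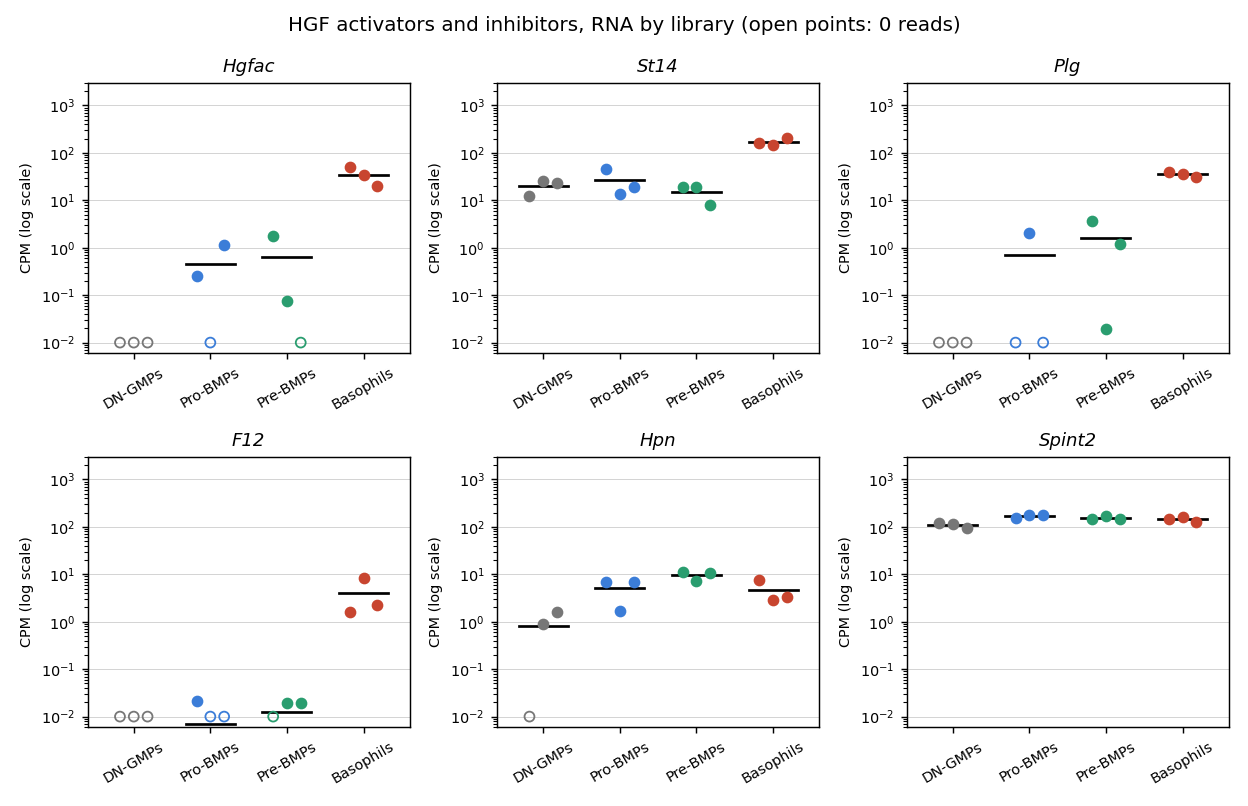
CPM of 5 protease genes of the HGF processing list and of the inhibitor gene Spint2 in each library, on a log y axis shared by the panels. Points are libraries, 3 per population, black lines are means, and open points mark 0 reads at an arbitrary height. Hgfac, St14, Plg and F12 are highest in the 3 basophil libraries, while Hpn is not.

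Regulators of Il4 transcription known from T cells, mast cells and basophils were read next. Of 24 measured, 3 were called higher and 0 lower in Pro-BMPs than in DN-GMPs, 7 and 0 in Pre-BMPs against Pro-BMPs, and 17 and 1 in basophils against Pre-BMPs. In basophils against DN-GMPs the counts were 20 higher and 0 lower, with a median log2 difference of 2.21 against -0.01 over all genes. Of all genes, 2%, 4.8% and 13.9% were called higher at the 3 successive steps, and 23.2% in basophils over DN-GMPs. The 3 early calls were 1 to 3 under the alternatives. Gata2 averaged 23.2 CPM in DN-GMPs, 164 CPM in Pro-BMPs, 770.2 CPM in Pre-BMPs and 2104 CPM in basophils, and was higher in Pro-BMPs than in DN-GMPs by 2.76 on the log2 scale (limma adjusted p = 0.000111).

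Ets1, a transcription factor of lymphoid cells, stood at 1070, 994 and 1030 CPM in basophils, against 95.6, 62.0 and 69.5 CPM in Pre-BMPs, a log2 difference of 3.79 (SE 0.354, limma adjusted p = 1.42e-05). Nfatc2, a calcium-activated factor that acts on the Il4 promoter in T cells, was at 35.3, 33.2 and 27.5 CPM in basophils, against 0.142, 0 and 0.536 CPM in Pre-BMPs (log2 difference 8.42, SE 1.69, limma adjusted p = 0.00301). It was at 0 reads in DN-GMPs. The basophil step also carried the signalling receptor gene Notch1, higher by 3.01 (limma adjusted p = 1.22e-05), and the AP-1 gene Junb, higher by 2.49 (limma adjusted p = 1.02e-06). Junb, Jun and Fos are also on the list of immediate early and stress genes read further on, which can respond to sorting. Gata3, the main Il4 regulator of type 2 helper T cells, averaged at most 2.8 CPM in any population. Gata1 averaged 150.5 ± 29.7 CPM in basophils and 205 ± 12.4 CPM in Pre-BMPs (SD, n = 3 each).

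Of the 3 steps, the basophil step held most calls of the NF-kB family, which acts on Il6 and Csf1 in other cells. Of 12 measured genes, 1 was called higher in Pro-BMPs than in DN-GMPs and 0 either way in Pre-BMPs against Pro-BMPs. Over all genes, 2% were higher and 0.536% lower at the first of these steps, and 4.8% higher and 4.69% lower at the second. In basophils against Pre-BMPs 6 NF-kB genes were called higher and 0 lower, beside 13.9% of all genes higher and 16.5% lower, the largest shares of the 3 steps. In basophils against DN-GMPs, 10 NF-kB genes were higher and 2 lower, beside 23.2% of all genes in each direction. The lower ones included Bcl3, which averaged 16.2 CPM in DN-GMPs and 0.239 CPM in basophils (log2 difference -7.14, limma adjusted p = 0.000312). The inhibitor gene Nfkbia, itself an NF-kB target, was higher in Pro-BMPs than in DN-GMPs by 1.02 on the log2 scale (limma adjusted p = 0.00143) and in basophils than in Pre-BMPs by 1.69 (limma adjusted p = 4.89e-06). Nfkbiz was higher at the basophil step by 3.05 (limma adjusted p = 0.00710). Immediate early and stress genes, which can respond to sorting, summed to 594 to 693 CPM in basophils over 13 genes, against 225 to 267 CPM in Pre-BMPs, with 5 higher and 2 lower, and their part in the basophil values was not tested.

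Cytokine RNAs are short lived where their 3′ untranslated region holds AU-rich pentamers bound by decay factors, and the following stretches of 30 bases, with ATTTA in capitals, show how the members carry them. This search was added after the levels were seen, and the sequences are from GENCODE vM21 on GRCm38.
Il4: tttttaatATTTAtatATTTAtaattcata
Il6: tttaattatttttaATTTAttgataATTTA
Hgf: ttgttgtttATTTAtATTTAttatcctagt
Csf1: aaggtcATTTAaatatctATTTAaaaaata
Il4 has 2 such pentamers in 104 bases, Il6 has 6 in 427, Hgf has 7 in 1159 and Csf1 has 4 in 2111. That is 19.2 per kilobase for Il4, 14.05 for Il6, 6.04 for Hgf and 1.895 for Csf1, against a median of 1.24 over 11771 genes. As many per kilobase are found in 0.212% of genes for Il4, 0.348% for Il6, 4.36% for Hgf and 36.6% for Csf1.

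Of 11 measured decay and stability factors, 3 were called higher and 2 lower in basophils than in Pre-BMPs. Over all genes, 13.9% were called higher and 16.5% lower there. Zfp36, encoding tristetraprolin, which binds AU-rich elements and promotes decay, was at 81.7, 57.6 and 52.3 CPM in basophils, against 1.55, 0.633 and 2.30 CPM in Pre-BMPs, a log2 difference of 5.57 (SE 0.507, limma adjusted p = 1.17e-05). Zc3h12a, encoding the endonuclease Regnase-1 that cuts Il6 RNA, was higher by 2.05 (limma adjusted p = 0.00791), at 10.45 CPM in basophils and 2.81 CPM in Pre-BMPs. Arid5a, which stabilises Il6 RNA, was higher by 1.01 (limma adjusted p = 0.00554). Zc3h12c, a Regnase family gene, had the widest difference and was lower. It was at 0 reads in all 3 basophil libraries, against 3.80, 0.211 and 2.89 CPM in Pre-BMPs, at least 33.2-fold lower (log2 difference -6.86, limma adjusted p = 0.0192), a call lost with voom weights and without Pre-BMP library 1 or 3. Hnrnpd, encoding the AU-rich element binding protein AUF1, averaged 112 CPM in basophils and 141 CPM in Pre-BMPs (log2 difference -0.33, limma adjusted p = 0.00981).

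The genes beside Il4 on chromosome 11 were compared with it. Of 5 measured neighbours, 3 were called higher and 1 lower in basophils than in DN-GMPs, where 23.2% of all genes were called in each direction. Sept8 had the widest difference there, at 4.505 on the log2 scale (limma adjusted p = 2.88e-05), and Irf1 was higher by 1.16 (limma adjusted p = 0.00246). Sept8 was also higher in Pre-BMPs than in Pro-BMPs by 2.64 (limma adjusted p = 0.0082), but was not called in Pro-BMPs against DN-GMPs. Kif3a, a kinesin gene at chr11:53567379-53601967 that ends next to Il4, was at 57.8 ± 3.90 CPM in basophils and 15.7 ± 4.04 CPM in Pre-BMPs, a log2 difference of 1.92 (limma adjusted p = 0.00327). Rad50, a DNA repair gene at chr11:53649519-53707319 whose introns hold the control region of the locus in T cells, was lower in basophils than in DN-GMPs (log2 difference -0.82, limma adjusted p = 0.0141), a call lost in 2 of the 6 fits that left out a library. Il13 and Il5, which lie between and beyond them, were not analysed here.

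Other cytokine genes moved in both directions. Of 12 measured inflammatory and IL-6 family cytokines, 5 were called higher and 3 lower in basophils than in Pre-BMPs, with 3 to 4 higher and 1 to 3 lower when single libraries were left out, beside 13.9% of all genes higher and 16.5% lower. Osm, encoding oncostatin M of the IL-6 family, was at 77.5, 84.8 and 60.5 CPM in basophils, against 6.10, 3.21 and 2.34 CPM in Pro-BMPs, a log2 difference of 4.36 (limma adjusted p = 6.21e-06). Il15, a survival factor for lymphocytes, was higher in basophils than in Pro-BMPs by 2.15 (limma adjusted p = 4.97e-06). Il12a, a chain of interleukin 12, was lower in that comparison (log2 difference -2.95, limma adjusted p = 0.000339). Of the type 2 and colony-stimulating cytokines 2 were measured. Flt3l, encoding the ligand of the receptor kinase FLT3, averaged 0.995 CPM in DN-GMPs, 1.40 CPM in Pro-BMPs, 7.17 CPM in Pre-BMPs and 26.3 CPM in basophils. It was higher in basophils than in DN-GMPs by 5.40 on the log2 scale (limma adjusted p = 0.000643) and than in Pro-BMPs by 4.40 (limma adjusted p = 0.00298), and no single step of it was called. Tslp, an epithelial cytokine that acts on basophils, was at 0, 0.486 and 0 CPM in basophils, against 5.795, 8.57 and 6.30 CPM in Pre-BMPs, a log2 difference of -7.39 (limma adjusted p = 0.000717).

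Among 8 measured growth factors, 0 were called higher and 2 were called lower in basophils than in Pre-BMPs, against 13.9% of all genes higher and 16.5% lower. Angpt1, a vascular growth factor, averaged 112 ± 13.1 CPM in basophils and 250.4 ± 26.1 CPM in Pre-BMPs, a log2 difference of -1.17 (limma adjusted p = 0.000929). Vegfa was at 1.40 ± 0.869 CPM in basophils and 32.55 ± 10.3 CPM in Pro-BMPs, a log2 difference of -4.73 (limma adjusted p = 0.000183). Most type 2 and colony-stimulating cytokine genes were not analysed here.

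Markers of other cell types were read for each population. The 11 neutrophil markers summed to 18940 to 21810 CPM in DN-GMPs and 17680 to 19670 CPM in Pro-BMPs. Their sums were 5376 to 6558 CPM in Pre-BMPs and 2930 to 4056 CPM in basophils, where Mpo averaged 2362 CPM. Of these markers, 1 was called higher and 3 lower in basophils than in Pre-BMPs, beside 13.9% of all genes higher and 16.5% lower. The macrophage genes C1qa, C1qb and C1qc were at 0 in DN-GMPs and at most 4.66 CPM elsewhere. The 12 measured macrophage and monocyte markers summed to 1754 to 2082 CPM in DN-GMPs, 403 to 494 CPM in Pro-BMPs, 148 to 218 CPM in Pre-BMPs and 283 to 481 CPM in basophils. Of them, 2 were called higher and 4 lower in basophils than in Pre-BMPs, beside 13.9% of all genes higher and 16.5% lower. The higher sum in basophils was mostly Ccr2, a chemokine receptor gene, which averaged 302 CPM in basophils and 5.92 CPM in Pre-BMPs, while the monocyte gene Cx3cr1 averaged 10.1 CPM in basophils and 125 CPM in Pre-BMPs (log2 difference -3.82, limma adjusted p = 7.8e-05).

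Mast cell markers were called in both directions at the basophil step, with 1 higher and 3 lower of 4 measured, while in Pre-BMPs over Pro-BMPs, where the 4 cytokines were also called higher, 3 were higher and 0 lower. Over all genes, 13.9% were higher and 16.5% lower at the basophil step, and 4.8% higher and 4.69% lower at the step before. The mast cell protease gene Cma1 averaged 0.0527 CPM in DN-GMPs, 0.992 CPM in Pro-BMPs, 141 CPM in Pre-BMPs and 0.554 CPM in basophils. Tpsb2 was at 0 reads in DN-GMPs and Pro-BMPs and averaged 33.6 CPM in Pre-BMPs and 0.0231 CPM in basophils. Cpa3 ascended through the path, with 50.4 CPM in DN-GMPs, 686 CPM in Pro-BMPs, 1568 CPM in Pre-BMPs and 3584 CPM in basophils, where the last step was not called with quantile normalization. The 9 eosinophil markers summed to 26.3 to 48.3 CPM in DN-GMPs, 1912 to 3072 CPM in Pro-BMPs, 2286 to 3828 CPM in Pre-BMPs and 352 to 526 CPM in basophils. In Pro-BMPs over DN-GMPs, where the 4 cytokines were called higher, 8 of the 9 were called higher and 0 lower (4 to 8 higher under the alternatives). Over all genes, 2% were higher and 0.536% lower at that first step. In basophils against Pre-BMPs, 0 of the eosinophil markers were higher and 8 lower. Of 13 T and innate lymphoid cell markers, 5 were measured and summed to 154 to 195 CPM in basophils, against 9.59 to 19.8 CPM in Pre-BMPs. Il7r made up most of that sum, at 135, 113 and 106 CPM in basophils. Of 11 stromal and endothelial markers 3 were measured, with sums of 343 to 352 CPM in basophils and 165 to 225 CPM in Pre-BMPs, with 1 called higher and 2 lower. Pecam1, the higher one and also made by blood cells, averaged 343 CPM in basophils. The part of these other cell types in the levels of the 4 cytokines was not tested.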

How the data were processed

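RNA of 4 sorted mouse bone marrow populations was sequenced, with 3 libraries each. Cells went through double sorting before RNA extraction, per the labels' protocols, and cDNA was made with SmartSeq v4 and turned into libraries with Nextera XT, neither of which keeps strand. The submitters' processing notes name Trimmomatic, STAR, deepTools and HTSeq without versions, and the authors' genome build is not given in the sources used here. The authors deposited log2 values of reads plus 0.5 per 1000000 of a scaled library size, which came back as whole reads within 0.001 read for 100% of values. CPM values here leave out the added 0.5. Rows for unassigned reads (3) were left out of tests. They held 6.65% to 12.6% of reads without a feature, 3.63% to 4.14% ambiguous and 8.51% to 12.1% multiply aligned.

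The deposited log2 values of 14560 genes were fitted with limma (version 3.58.1, in R version 4.3.3), with 1 mean per population over 12 libraries and a mean-variance trend. The 6 pairs of populations were compared with two-sided tests, where a call is an adjusted p under 0.05 after Benjamini-Hochberg correction over the whole table. Log2 differences are of mean log2 values, and folds are ratios of mean CPM. A fold given as at least is against 3 reads per library and covers counting error only. The fit was tested on simulated data. Lengths, exons and 3′ untranslated regions are from GENCODE vM21 and promoters from RefSeq, whose table held all 4 members. It gives 2 start windows for Il4 and for Hgf, of which the outermost was used. Genes named from a list are the up to 4 with the widest called difference in a comparison, all measured receptors, the 5 genes most like each member and genes overlapping a member, while Fcer1a, C1qa, C1qb and C1qc, Hnrnpd at the basophil step, and Gata3 and Gata1 in populations beyond those comparisons, were given after their values were seen. The members, lists and tests were chosen with earlier results of these data known. Alternatives were 5 reads added, quantile normalization, genes with a mean of at least 1 CPM, no mean-variance trend, voom weights, the 2 populations fitted alone, a replicate block, each library left out, and, added after the data were seen, scaling by library totals.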

Additional observations from a re-analysis of the deposited data

How the results depend on the processing

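Of 336 alternative fits of a member in a comparison, 314 kept the direction and the call, 22 kept the direction and lost the call, and 0 turned the direction. The number of members called higher in Pro-BMPs over DN-GMPs was 4, and it was 1 with voom weights and 2 with the 2 populations fitted alone. In Pre-BMPs over Pro-BMPs it was 4, with 2 to 4 when single libraries were left out, and in basophils over Pre-BMPs 4, with 3 in each such fit. Over all genes, 369 were called in Pro-BMPs against DN-GMPs, with 228 when the 2 populations were fitted alone and 231 to 481 when single libraries were left out. In Pre-BMPs against Pro-BMPs 1382 genes were called, with 778 to 1093 when single libraries were left out. Fits without a library have fewer samples, but the cause of these losses, and of those under the other alternatives, was not tested.

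Scaling by library totals moved the median of all genes by -0.321 on the log2 scale in basophils against Pre-BMPs, by -0.288 against Pro-BMPs and by -0.260 against DN-GMPs, and quantile normalization by -0.131 in Pre-BMPs against DN-GMPs and -0.105 in basophils against DN-GMPs. No member changed direction or call under either. With the replicate number as a replicate block, 4 members were called in each of the 6 comparisons. Of 18 pairs of same-numbered libraries from different populations, 1 had deviations correlated over 0.1 (correlations of -0.0729 to 0.101 over 8654 genes). Differently numbered pairs ranged from -0.12 to 0.0888. Whether same-numbered libraries share a mouse is not stated in the labels. Among the lists, the 2 decay factors lower in basophils than in Pre-BMPs were 1 to 4 under the alternatives, the 3 lower inflammatory cytokines 1 to 5 and the 2 lower growth factors 1 to 3. At this depth a level under 0.0745 CPM cannot be told from 0.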
